A study of Mus musculus with 24 samples.

Results

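This account concerns the loss of Irf5 in dendritic cells that already lacked Lyn, at rest, that is in cells that received no stimulus. The comparison was set by the sample titles and holds 6 of the 24 arrays of the series: 3 arrays of unstimulated cells from mice without Lyn and Irf5 (DKO) against 3 arrays of unstimulated cells from mice without Lyn (Lyn-KO). All mice were on a C57BL/6 background, and their age is not given in the labels. In each group, bone marrow cells were grown for 9 days with human Flt3 ligand at 100 ng/ml, a growth factor that drives bone marrow into both the plasmacytoid and the conventional lineage of dendritic cells, and total RNA of the whole culture was hybridised to 1-colour Agilent mouse arrays. Both groups therefore shared the deletion of Lyn, the culture and the absence of stimulus, and differed in Irf5. Beside these, 6 unstimulated arrays of mice with Lyn (3 wild type, WT, and 3 Irf5-KO) and the 12 arrays of the same 4 genotypes that received the DNA oligonucleotide CpG-B at 150 nM for 6 h (3 each) are used to set the same genes in other arrays. The series design calls the 3 samples of a group biological replicates. The labels do not say how the alleles were made, nor whether the unstimulated and stimulated samples of a number came from the same mouse.

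Irf5 is a transcription factor that acts downstream of Toll-like receptors and the adaptor MyD88, where it drives genes of inflammatory cytokines and type I interferon. Lyn is a Src-family tyrosine kinase that carries both activating and inhibitory signals in myeloid cells, and it is known as a negative regulator of Irf5. Comparing DKO with Lyn-KO cells asks what Irf5 contributes to expression when this restraint is absent and no ligand was added.

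Signals are given as log2 of the processed signal minus the 75th percentile of the array, so that 0 is the level of that percentile and 1 unit is a factor of 2; differences are DKO minus Lyn-KO on that scale. The 75th percentile lay between 352.5 and 530.1 intensity units on the 6 arrays, and 41.03% to 53.34% of the spots were well above background, lowest on Lyn-KO replicate 1. Arrays of the DKO group correlated at 0.9939 to 0.9947 with each other, those of the Lyn-KO group at 0.9909 to 0.9949, and arrays of different groups at 0.991 to 0.9946. On each of the 3 slides there was a single array per group, and a genotype always sat in the same column of the slide (column 3 for Lyn-KO, column 4 for DKO), so slide position and genotype cannot be told apart.

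The targeted genes were read first. Lyn was at -0.77, -1.01 and -0.80 in DKO cells and at -0.93, -0.87 and -0.75 in Lyn-KO cells, while WT cells stood at 0.75, 1.13 and 1.04. Every Lyn-KO array was thus below every WT array, by 1.82 ± 0.09 on average (SE; limma adjusted p = 8.43e-10), and DKO and Lyn-KO arrays overlapped, with a difference of -0.01 (95% interval -0.19 to 0.17). Irf5 was at 4.52, 4.55 and 4.55 in DKO cells and at 4.84, 4.86 and 4.79 in Lyn-KO cells. These groups did not overlap, but the difference of -0.29 ± 0.09 (95% interval -0.48 to -0.10) was not called (limma adjusted p = 0.347). The labels do not place the deleted part of Irf5 relative to the probe, so this signal is no check of the Irf5 genotype. Some colonies of Irf5-deficient mice are known to carry a second mutation in Dock2, a regulator of Rac signalling; its signal differed by 0.09 (95% interval -0.11 to 0.28, limma adjusted p = 0.989), its other probe had the opposite sign, and whether these mice carried it is not given.

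Among 20210 features tested, 33 were called at an adjusted p of 0.05 (0.163%; limma, Benjamini-Hochberg, 2-sided), 18 higher in DKO cells (0.0891%) and 15 lower (0.0742%), and 24 of them had a gene name, 12 in each direction. The higher genes included Asns, Slc6a9, Trib3 and Chac1, genes of the integrated stress response, and also the basophil protease Prss34 and the opioid precursor Penk. The lower genes included Fam89a, Cd300e, Ifnlr1, Hsd11b1 and Arf5. All 33 called features had the same sign on all 3 slides and no overlap between groups, where 12.3% of all features had groups that do not overlap. The 33 were picked by their p on these same arrays, so this follows largely from the selection and is no separate support. Of them, 19 differed by at least 2-fold. An unadjusted p under 0.05 was reached by 1351 features.

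How many features passed rested on arrays outside the comparison, since all 24 arrays shared the estimate of the spread. With the 6 arrays alone the differences were the same, but no feature was called (limma, smallest adjusted p = 0.0501; 1258 with an unadjusted p under 0.05), and with the 12 unstimulated arrays 17 were. Without DKO replicate 3 there were 54 calls and without Lyn-KO replicate 3 there were 20. Of the 24 named genes, 10 kept their call when any 1 of the 6 arrays was left out: Asns, Trib3, Slc6a9, Chac1, Prss34, Wnt6, Fam89a, Cd300e, Arf5 and Lgi4. Wnt6 entered the test only through the DKO group, where it is high, so its place among them is a description. The call of each of the other 14 ended without at least 1 array, for 13 of them without Lyn-KO replicate 3 and for 12 without Lyn-KO replicate 1, with adjusted p up to 0.179 in these fits, and always in the same direction. With the replicate number as a block in the fit, the calls of Insm1, Cnga2, Adgrg6 and Arhgap8 ended (adjusted p = 0.0523).

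**Figure D1:**
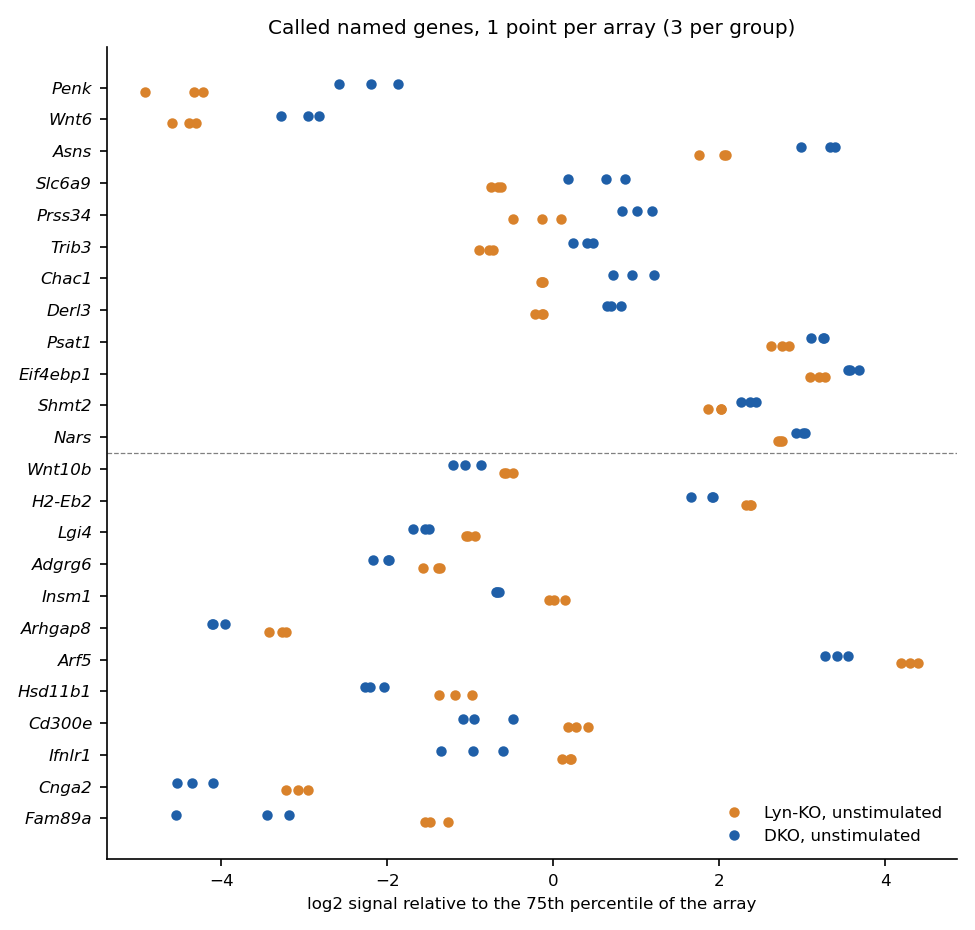
Signal of the 24 called named genes on each array (x axis, log2 relative to the 75th percentile of the array; y axis, genes ordered by their difference; 1 point per array, 3 per group). The 12 genes above the dashed line are higher in DKO cells and the 12 below it lower, and in none of the 24 do the groups overlap.

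The integrated stress response is the programme that cells switch on when amino acids run short, unfolded protein accumulates or haem is lacking: kinases phosphorylate the initiation factor eIF2, and the transcription factor Atf4, together with C/EBP partners, then induces genes for amino acid synthesis, amino acid transport and tRNA charging. Its targets often carry a composite C/EBP-ATF element near the start of transcription. The core TGATGNAA was searched on both strands in the 250 bases before the start of each gene (RefSeq, GRCm38.p6). It was found in 3.91% of 27025 genes with such a window and in 10 of the 38 measured genes of the list that had one (26.3%), among them Asns and Chac1 of the 6 called genes with a window. The matches that had 8 bases of window on either side are printed here to show the element as it stands in these genes; most genes of the list had none in this window. Each is read 5′ to 3′ in the orientation of the core, which is in capitals, with the GRCm38.p6 position of the printed stretch.
Aars chr8:111033722-111033745: ggctcggcTGATGCAAtgctcaag
Asns chr6:7693217-7693240: cagccacaTGATGAAActtcccgc
Atf3 chr1:191183428-191183451: ggacttggTGATGCAAgtgcgaga
Chac1 chr2:119351041-119351064: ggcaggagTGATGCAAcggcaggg
Gars chr6:55037963-55037986: ccggtgcaTGATGAAAtagcgcag
Herpud1 chr8:94386309-94386332: gtgcgggcTGATGCAAcccgccgt
Nupr1 chr7:126625565-126625588: gccctgtcTGATGCAAtctggccc
Slc7a11 chr3:50443664-50443687: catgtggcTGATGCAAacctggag
Slc7a11 chr3:50443645-50443668: ctgcatgaTGATGCAAattctcca
Vldlr chr19:27216812-27216835: aggagcgcTGATGCAActattgct
In Asns the core lay 23 bases before the start on the strand of the gene, and in Chac1 193 bases before the start on the other strand. The whole window of Asns, the called gene of the list with the largest difference, was chr6:7693210-7693459 on the minus strand of GRCm38.p6:
Asns: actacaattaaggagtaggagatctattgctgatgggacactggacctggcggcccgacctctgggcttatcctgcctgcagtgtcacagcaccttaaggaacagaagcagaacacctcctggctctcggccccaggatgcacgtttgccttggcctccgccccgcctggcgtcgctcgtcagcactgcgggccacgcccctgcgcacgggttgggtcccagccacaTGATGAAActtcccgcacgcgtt
A match is a run of letters, and no binding was measured. Of the genes printed, only Asns and Chac1 were called, and Slc7a11 was not well above background on any of the 6 arrays. Trib3, Shmt2, Psat1 and Slc6a9 had no match in this window.

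Of the 44 measured genes of the list, 7 were called higher in DKO cells and 0 lower, against 0.0891% and 0.0742% of all features. The list was chosen with earlier results of these data known, so its contrast with all features is a description. The median difference was 0.19 against -0.02 over all features, 37 of 44 differences were positive against 42.87% of all features, and 22 were higher at an unadjusted p under 0.05. On the 3 slides the median was 0.21, 0.23 and 0.15, and 32 genes were higher on every slide while 0 were lower on every slide. The count of 7 fell to 4 without Lyn-KO replicate 3, while the median stayed between 0.17 and 0.22 on leaving out any 1 array.

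Asns, asparagine synthetase, was at 2.98, 3.34 and 3.40 in DKO cells and at 1.76, 2.06 and 2.08 in Lyn-KO cells. Every DKO array was above every Lyn-KO array, and the difference was 1.27 ± 0.11 (SE, n = 3 and 3; 2.41-fold, limma adjusted p = 9.75e-06). Trib3, a pseudokinase that restrains Atf4 signalling, was at 0.40, 0.47 and 0.24 against -0.73, -0.77 and -0.89. It was higher by 1.17 ± 0.10 (limma adjusted p = 1.04e-05), with differences on the slides of 1.13, 1.25 and 1.13. Chac1, which degrades glutathione, was at 1.22, 0.95 and 0.72 against -0.13, -0.13 and -0.15, and was higher by 1.10 ± 0.16 (limma adjusted p = 0.00215). The Lyn-KO arrays were nearly equal for this gene, and the spread lay in the DKO arrays. Slc6a9, the glycine transporter GlyT1, was at 0.18, 0.87 and 0.63 against -0.75, -0.67 and -0.64, higher by 1.25 ± 0.16 (limma adjusted p = 0.000796), and its other probe had the same sign.

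The called genes of serine and glycine metabolism moved less. Psat1, an enzyme of serine synthesis, was higher by 0.46 ± 0.08 (slide differences 0.48, 0.42 and 0.49; limma adjusted p = 0.0132). Shmt2, which turns serine into glycine in mitochondria, was higher by 0.39 ± 0.07 (limma adjusted p = 0.0143), with slide differences from 0.23 to 0.50. The other enzymes of the serine branch had positive differences that were not called: Psph 0.23 ± 0.09, Phgdh 0.18 ± 0.12 and Mthfd2 0.16 ± 0.07. Aldh18a1, which starts proline synthesis, stood at 0.53 ± 0.11 (limma adjusted p = 0.076) and its groups did not overlap.

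Among the enzymes that load tRNA with amino acids, Nars, which loads asparagine, was called, at 3.01, 2.93 and 3.03 against 2.70, 2.75 and 2.74 (0.26 ± 0.05, limma adjusted p = 0.0391). The others that stood nearest to the threshold were Cars (0.22 ± 0.05, limma adjusted p = 0.119) and Sars (0.23 ± 0.06, limma adjusted p = 0.193). The transcription factors of the pathway were close between the groups. Atf4 was at 6.73, 6.87 and 6.82 against 6.58, 6.75 and 6.65, a difference of 0.15 ± 0.06 that was not called (limma adjusted p = 0.618). Ddit3 (CHOP) differed by 0.28 ± 0.09 and Atf5 by 0.28 ± 0.08, without a call, and Atf3 by 0.19 ± 0.12. Outside the list, Eif4ebp1, the translation repressor 4E-BP1, was higher by 0.41 ± 0.07 (limma adjusted p = 0.0216); it is in none of the lists.

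The list of chaperones and Xbp1 targets of the endoplasmic reticulum, the other main arm of the response to unfolded protein, had 1 gene called higher among 24, against 0.0891% of all features. Derl3, which takes part in disposal of misfolded protein from that compartment, was at 0.64, 0.81 and 0.69 in DKO cells against -0.13, -0.12 and -0.22 in Lyn-KO cells, higher by 0.87 ± 0.15 (limma adjusted p = 0.0132). Its call ended without DKO replicate 2 and without Lyn-KO replicate 1 or 3 (limma adjusted p = 0.0555, 0.0523 and 0.074). Derl3 was also called higher in Irf5-KO than in WT cells (0.78 ± 0.15, limma adjusted p = 0.0139). It was called lower in Lyn-KO than in WT cells (-1.56 ± 0.15, limma adjusted p = 1.54e-06). With means of 1.41 in WT and 2.19 in Irf5-KO cells, DKO cells stood below both. Of the other genes of this list, Sdf2l1 (0.27 ± 0.09), Creld2 (0.22 ± 0.08) and Manf (0.15 ± 0.06) had an unadjusted p under 0.05 without a call, and the median of the list was 0.08. Of the 16 measured antioxidant genes that Nrf2 controls, 14 had positive differences, against 42.87% of all features, with a median of 0.13. None was called, where 0.163% of all features were.

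**Figure D2:**
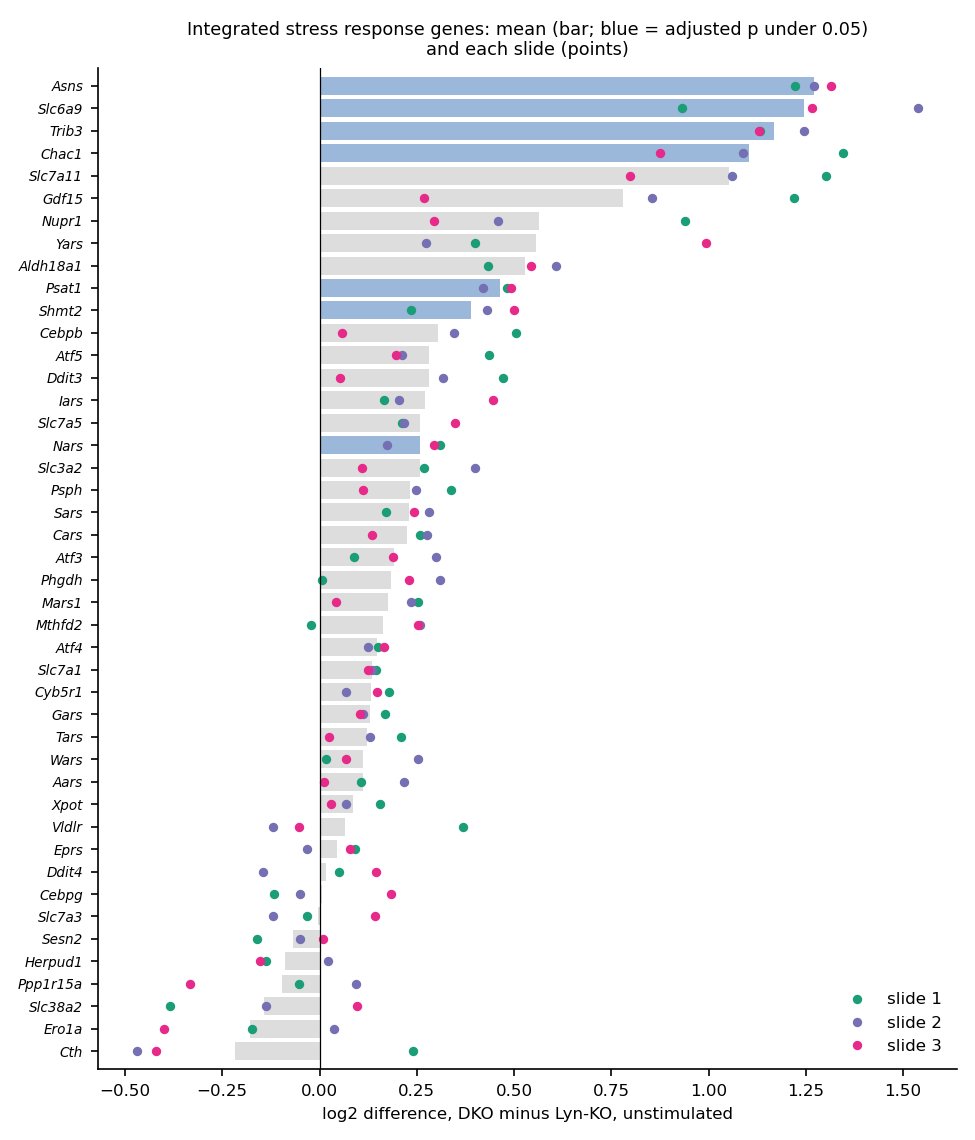
Difference between DKO and Lyn-KO for the 44 measured genes of the integrated stress response list (x axis, log2 difference). Bars show the difference between the means of the groups, 3 arrays each, and are blue where called. Points show the difference on each of 3 slides. Asns, Slc6a9, Trib3 and Chac1 stand above 0.8 on every slide, and 32 of 44 genes lie above 0 on all 3.

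The unstimulated arrays of mice with Lyn give the same deletion in arrays that share no sample with the comparison. There 149 of 20210 features (0.737%) were called between Irf5-KO and WT. Of the 33 features called without Lyn, 25 had the same sign with Lyn, against 57.01% of all features, 13 were also called there in the same direction and 0 in the opposite one. In the stress response list 9 genes were called higher with Lyn and 0 lower, 4 of them called in both backgrounds: Asns, Trib3, Slc6a9 and Chac1. Asns was at 3.14, 3.36 and 3.32 in Irf5-KO cells and at 2.00, 2.10 and 2.33 in WT cells, higher by 1.13 ± 0.11 (limma adjusted p = 6.05e-05). Trib3 was higher by 0.91 ± 0.10 with Lyn, Slc6a9 by 0.87 ± 0.16 and Chac1 by 0.86 ± 0.16. For each of these 4 genes the effect without Lyn minus the effect with Lyn was not called, from 0.14 ± 0.16 for Asns to 0.38 ± 0.22 for Slc6a9. Of the 149 features called with Lyn, 115 had the same sign without it and 54 of those had an unadjusted p under 0.05.

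**Figure D3:**
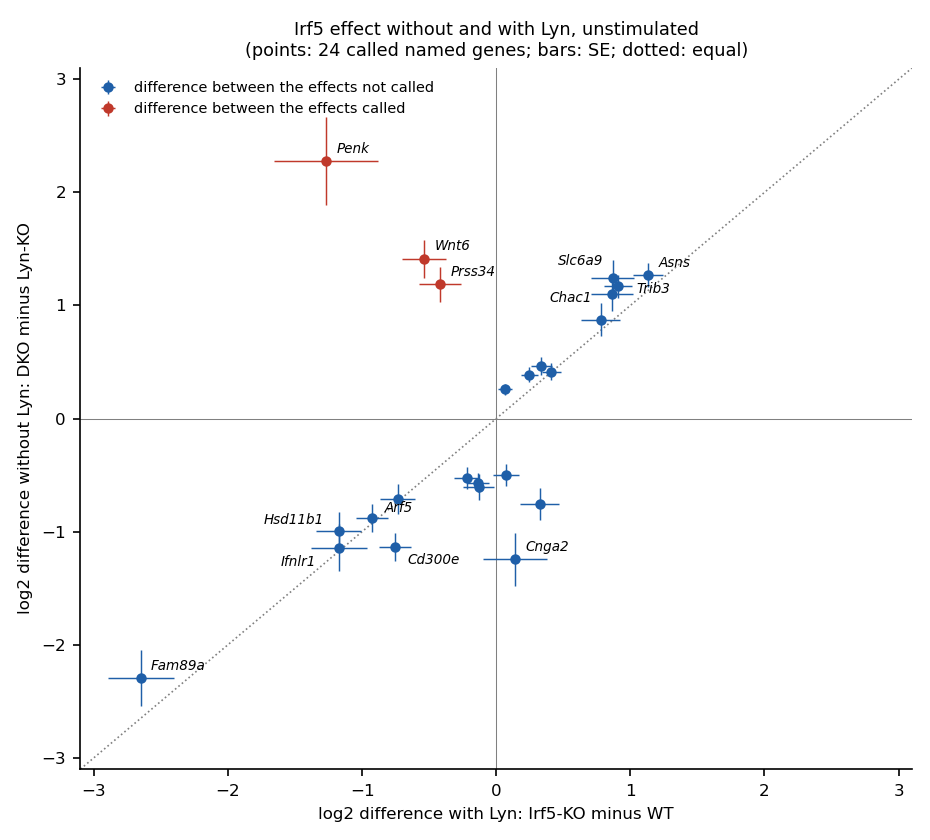
Effect of losing Irf5 on the 24 called named genes in unstimulated cells without Lyn (y axis, DKO minus Lyn-KO, log2) and with Lyn (x axis, Irf5-KO minus WT, log2); bars are SE from the fit and the dotted line marks equal effects. The stress genes and Fam89a lie near the line, while the difference between the effects was called for Penk, Wnt6 and Prss34 (red); the x values of Penk and Wnt6 rest on signals mostly not above background.

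Among the lower genes, Fam89a had the largest difference of those called. Its 3 Lyn-KO arrays were at -1.27, -1.55 and -1.49, and no DKO array was well above background, so it was at least 3.80-fold lower, a lower bound against the dimmest signal above background (difference of the signals -2.29 ± 0.25; limma adjusted p = 8.8e-05). With normexp that difference was -1.10, which is under this bound. Cd300e, an activating receptor of monocytes, was at -1.09, -0.96 and -0.49 against 0.27, 0.42 and 0.18 (-1.14 ± 0.12, limma adjusted p = 8.8e-05). Ifnlr1, a chain of the receptor for type III interferon, was at -1.35, -0.96 and -0.61 against 0.10, 0.21 and 0.20. It was lower by 2.21-fold on these means (-1.14 ± 0.21, limma adjusted p = 0.0271), and the DKO arrays spread more than the Lyn-KO arrays. Hsd11b1, which regenerates active glucocorticoid, was at -2.04, -2.21 and -2.27 against -0.99, -1.38 and -1.18 (-0.99 ± 0.17, limma adjusted p = 0.0142; -0.62 with normexp). The calls of Ifnlr1 and Hsd11b1 ended without Lyn-KO replicate 1 or 3, and that of Ifnlr1 also without Lyn-KO replicate 2 or DKO replicate 1 or 2.

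These genes were lower with Lyn as well, and the same genotypes differed far more after CpG-B. Fam89a was lower by 2.65 in Irf5-KO against WT cells, Hsd11b1 by 1.18, Ifnlr1 by 1.17 and Cd300e by 0.76, all called. With CpG-B, where 6374 features (31.5%) were called between DKO and Lyn-KO, Fam89a stood at 5.38 ± 0.13 in Lyn-KO cells (SD, n = 3) and at -1.04 ± 0.29 in DKO cells. Hsd11b1 differed there by -5.73 ± 0.17, Ifnlr1 by -5.20 ± 0.21 and Cd300e by -2.50 ± 0.12. The change of the Irf5 effect between CpG-B and rest was called for 3783 features (18.7%), these 4 among them. Of the 33 features called at rest, 20 were called in the same direction with CpG-B, against a background of 31.5% in either direction, and 2 in the opposite one. Those were H2-Eb2, a class II antigen presentation gene, at -0.53 ± 0.10 at rest and 1.33 ± 0.10 with CpG-B, and Arhgap8, at -0.75 ± 0.14 and 0.92 ± 0.14. Of the stress response list, 23 genes were called higher and 5 lower with CpG-B. Asns was higher there by 1.05 ± 0.11 and Trib3 by 0.80 ± 0.10, Nupr1, a stress-induced chromatin protein, turned from 0.56 ± 0.14 at rest (not called) to -3.21 ± 0.14, and Slc6a9, at 0.40 ± 0.16, was not called (limma adjusted p = 0.0631). Between Irf5-KO and WT with CpG-B, 5154 features (25.5%) were called, and Asns was higher by 1.11 ± 0.11.

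The remaining lower genes are in none of the lists, so the lists cannot show whether they have a role in common. Arf5, a small GTPase of the Golgi, was at 3.28, 3.55 and 3.42 against 4.19, 4.30 and 4.40 (-0.88 ± 0.12, limma adjusted p = 0.00196) and was lower by 0.93 in Irf5-KO against WT cells too. Insm1, a zinc-finger transcription factor best known from endocrine cells, differed by -0.71 ± 0.13 and by -0.74 ± 0.13 with Lyn. Lgi4, a secreted protein, was lower by 0.57 ± 0.08 without Lyn and did not pass with it (-0.14 ± 0.08, limma adjusted p = 0.623), and the difference between these effects was not called (limma adjusted p = 0.366). Its mean was -1.58 in DKO, -1.64 in WT and -1.01 in Lyn-KO cells, so DKO cells stood near the WT level. Lyn-KO cells were called higher than WT cells (0.63 ± 0.08, limma adjusted p = 7.6e-05). Adgrg6, an adhesion receptor, was lower by 0.60 ± 0.11 and Wnt10b, a Wnt ligand, by 0.50 ± 0.10. Cnga2, a channel subunit of olfactory neurons, was well above background on 2 Lyn-KO arrays and no DKO array, and Arhgap8 on 1 and none. Against the dimmest signal above background they were 1.28-fold and 1.10-fold lower. These are no strict lower bounds, since their Lyn-KO means include arrays not above background. With normexp the calls of Cnga2, Arhgap8, Insm1, Adgrg6 and Wnt10b ended.

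For 3 of the higher genes, Prss34, Penk and Wnt6, the effect of losing Irf5 differed between cells without and with Lyn; none of the 3 was called between Irf5-KO and WT. Prss34, a serine protease of basophils, was at 1.19, 1.01 and 0.83 in DKO cells and at 0.10, -0.13 and -0.49 in Lyn-KO cells, higher by 1.19 ± 0.16 (limma adjusted p = 0.00122). In Irf5-KO cells it was at -0.20, -0.15 and -0.04, against 0.32, 0.50 and 0.05 in WT cells, a difference of -0.42 ± 0.16 that was not called. The difference between these effects was 1.61 ± 0.22 (limma adjusted p = 0.00991). DKO cells were thus the highest of the 4 genotypes, and no DKO array overlapped any other. Penk, the precursor of enkephalins, was at -2.20, -1.87 and -2.58 in DKO cells and not well above background in Lyn-KO cells, at least 3.15-fold higher (limma adjusted p = 0.0143). With background correction by normexp and quantile normalisation its difference was 0.73 and not called. Wnt6, a Wnt ligand, was at -2.96, -3.28 and -2.83 and likewise below background in Lyn-KO cells, at least 1.66-fold higher (limma adjusted p = 0.000306). The DKO group alone had it measured on 3 arrays, and it entered the test only through that group. Its call, and that of its difference between the backgrounds, are therefore descriptions. With normexp the difference of Wnt6 between DKO and Lyn-KO was 0.48. The effects of losing Irf5 on these genes differed between the backgrounds by 3.55 ± 0.55 for Penk and 1.95 ± 0.24 for Wnt6 (limma adjusted p = 0.0112 and 0.00304). Both were measured on 1 WT array and on no Irf5-KO or Lyn-KO array, so these sizes rest on signals not above background.

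Such a difference between the backgrounds was called for 17 features (0.0841%), 10 with a name, and 5 of the 17 were also called in DKO against Lyn-KO. Of these 5, Wnt6, the transcript BG069230 and a probe at chr12:25852471-25852681 of mm9 entered the test only through the DKO group, where they are high. With the 12 unstimulated arrays alone such a difference was called for 3. In 8 of the 17 the effect was positive without Lyn and negative with it, and in 8 the reverse. The granule protease Mcpt8, with Prss34 a marker of basophils, was among them (2.31 ± 0.37, limma adjusted p = 0.0134). It was at 0.14, 0.40 and 0.30 in DKO cells against -0.28, -1.06 and -1.41 in Lyn-KO cells (1.19 ± 0.26, limma adjusted p = 0.0874, not called). The means of Mcpt8 were -0.03 in WT and -1.14 in Irf5-KO cells, and its DKO and WT arrays overlapped. Cpa3, carboxypeptidase A of mast cells and basophils, was at -1.29, -0.90 and -1.32 against -2.07, -2.68 and -2.51, a difference of 1.25 ± 0.35 without a call (limma adjusted p = 0.252). Its means were -1.38 in WT and -2.34 in Irf5-KO cells, and here too DKO and WT arrays overlapped. For Mcpt8 and Cpa3, unlike Prss34, DKO cells thus stood near the WT level and both single knockouts were lower. Of 9 measured basophil and mast cell markers 1 was called higher and 0 lower, against 0.0891% and 0.0742% of all features. Their median difference was 0.81, and it was -0.50 between Irf5-KO and WT. On leaving out Lyn-KO replicate 3 that median was 0.52, and over the probes well above background on all arrays 0.24. Gata2 (0.81 ± 0.54) and Fcer1a (0.83 ± 0.49) were not called, and Hdc, Kit, Il6ra and Tpsb2 lay between -0.12 and 0.24. The summed signal of the 9 was 5040% to 5394% of the 75th percentile in DKO arrays and 5041% to 5196% in Lyn-KO arrays, so these ranges overlapped. With CpG-B the difference was again positive and called for Prss34 (1.20 ± 0.16), Mcpt8 (1.45 ± 0.26) and Cpa3 (2.04 ± 0.35). In RNA of a whole culture, more cells of a type and more RNA per cell cannot be told apart.

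**Figure D4:**
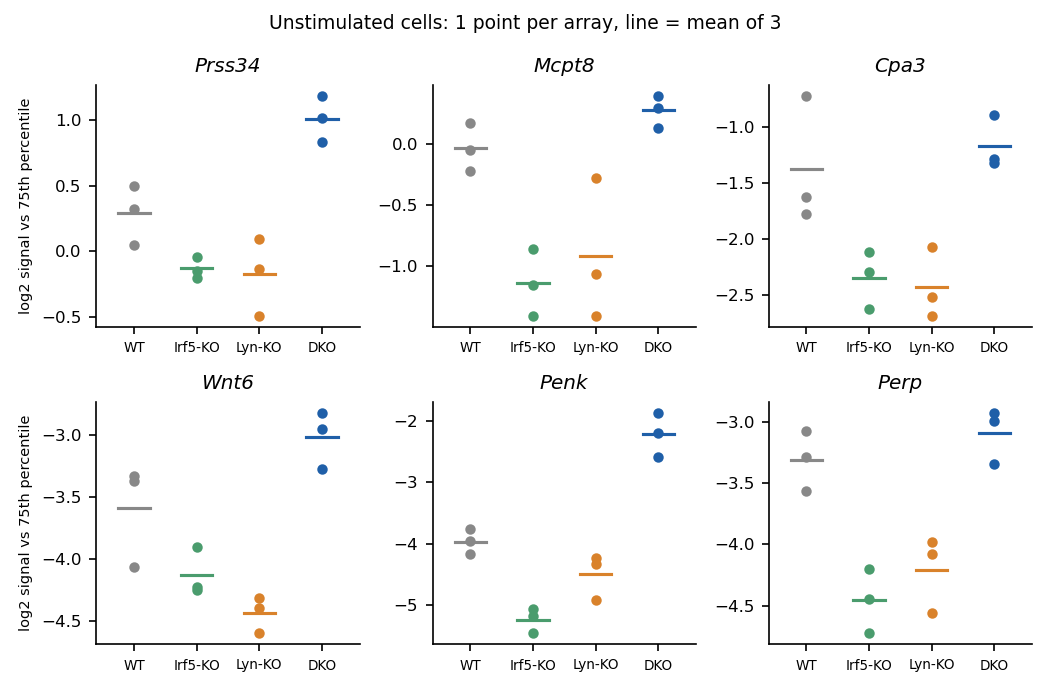
Signal of Prss34, Mcpt8, Cpa3, Wnt6, Penk and Perp in unstimulated cells of 4 genotypes (y axis, log2 relative to the 75th percentile of the array; 1 point per array, line at the mean of 3). All 3 DKO points of Prss34 lie above those of the other genotypes. Wnt6, Penk and Perp were measured on 1 WT array and on no Irf5-KO or Lyn-KO array, so their points there have no order. Of these genes only Prss34, Wnt6 and Penk were called between DKO and Lyn-KO, and Perp was picked after its values were seen.

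Markers of the dendritic cell lineages were measured throughout. All 20 plasmacytoid dendritic cell markers, all 14 of type 1 and all 13 of type 2 conventional dendritic cells were well above background on all 6 arrays, and none of these was called, where 0.163% of all features were. Their median differences were -0.08, 0.16 and -0.06. Of the differences, 15 of 20 were negative for plasmacytoid markers and 11 of 14 positive for type 1 markers, where 42.87% of all features were positive. The marker with the lowest p was Clec9a, a receptor for dead cells on type 1 cells (0.35 ± 0.08, limma adjusted p = 0.12), and in the plasmacytoid list it was Klk1 (-0.56 ± 0.20, limma adjusted p = 0.455). Of 17 B cell markers none was called, with Fcer2a at -0.59 ± 0.12 (limma adjusted p = 0.0624).

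Markers of neutrophils and their precursors tended lower without a call: 15 of 16 differences were negative, with a median of -0.42 (-0.79 without DKO replicate 1). Over all features 42.87% of differences were positive, with a median of -0.02. The summed signal of that list was 25890% to 28340% of the 75th percentile in DKO arrays and 30340% to 31770% in Lyn-KO arrays. Camp, an antimicrobial granule peptide, was at 0.32, -0.41 and -0.56 against 0.42, 0.63 and 0.40 (limma adjusted p = 0.351), so DKO replicate 1 lay near the Lyn-KO arrays. Of 18 monocyte and macrophage markers 17 had positive differences, against 42.87% of all features, with a median of 0.27. None was called, where 0.163% of all features were. The part of these cell types in the results above was not tested.

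Of 14 reported targets and partners of Irf5, mostly genes studied in stimulated cells, 0 were called, against 0.163% of all features, so that a count of 0 says nothing particular of them (limma; 3 had an unadjusted p under 0.05, Irf5 itself among them). Il6 stood at 0.02, 0.10 and -0.44 against 0.38, 0.02 and -0.01 (-0.24 ± 0.12, limma adjusted p = 0.791), and Tnf at 0.35 ± 0.17. The chemokine Ccl5 was at 7.25, 7.57 and 6.66 in DKO cells against 7.87, 7.89 and 7.92 in Lyn-KO cells, a difference of -0.73 ± 0.15 just short of a call (limma adjusted p = 0.0624). Ccl4 was at 2.82, 3.46 and 2.69 against 3.92, 3.46 and 3.88 (-0.76 ± 0.16, limma adjusted p = 0.0761). For Ccl5 the groups did not overlap, and for Ccl4 DKO replicate 2 stood level with Lyn-KO replicate 2. Between Irf5-KO and WT both were called lower, by 0.96 and 0.94. The motif GAAANNGAA, a core bound by the IRF family, was found on either strand in the 250 bases before the start of 8.18% of genes, of 1 of the 9 lower called genes with a window (Cnga2) and of 0 of the 9 higher ones.

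Among interferon-stimulated genes 1 array stood apart. Of 66 measured genes 0 were called (limma), against 0.163% of all features, 44 had positive differences (66.67%, against 42.87% of all features), and 6 were higher and 0 lower at an unadjusted p under 0.05. Their median difference was -0.01, 0.34 and -0.09 on the 3 slides, so DKO replicate 2 was higher than its neighbours. Cxcl9, a chemokine induced by interferon gamma, was at 0.24, 2.36 and -0.06 in DKO cells and at -0.47, -0.52 and -0.46 in Lyn-KO cells. Igtp, an interferon-induced GTPase, was at 0.97, 2.32 and 0.78 against 0.71, 0.52 and 0.64. Between Irf5-KO and WT the median of the list was -0.30, and 6 of 66 differences were positive. There 4 were called lower and 0 higher, where 0.737% of all features were called in either direction. Without DKO replicate 2 the median of the list between DKO and Lyn-KO was -0.04 against 0.09 with it. The stress genes Asns, Trib3, Slc6a9 and Chac1 kept their calls without that array.

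**Figure D5:**
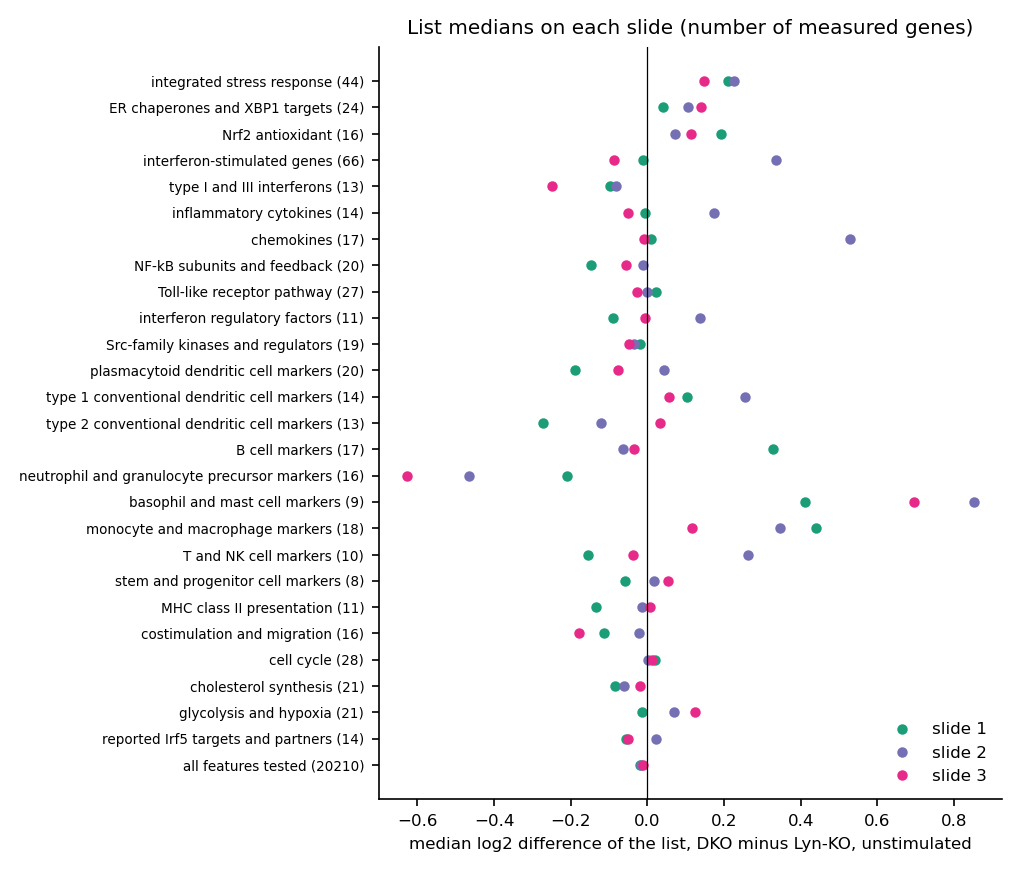
Median difference of each of 26 gene lists and of all features between DKO and Lyn-KO on each slide (x axis, log2; number of measured genes in brackets; 1 point per slide). The stress response, basophil, monocyte, endoplasmic reticulum, Nrf2, type 1 dendritic cell and cell cycle lists lie above 0 on all 3 slides. The neutrophil, costimulation, NF-kB, Src-family, interferon and cholesterol lists lie below 0 on all 3, as do all features, while interferon-stimulated genes and chemokines are high on slide 2.

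The genes beside Irf5 were read because a deletion made in cells of another strain can leave foreign sequence around it. Of the 20 nearest measured genes in the RefSeq order, 10 on each side, 1 was called: Arf5, the tenth on one side. The median difference of the 20 was -0.03, and 6 were positive, against 42.87% of all features. An unadjusted p under 0.05 was reached by 4 of them, against 6.685% of all features, among them Rbm28 (-0.23 ± 0.05, limma adjusted p = 0.12). Asns lies on the same chromosome, 39 measured genes away. Whether sequence of another strain remains there was not tested.

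9 called features had no gene name. The strongest was the probe A_55_P2152836, at 1.68, 1.72 and 1.59 in DKO cells against 3.06, 2.92 and 2.90 in Lyn-KO cells (-1.29 ± 0.10, limma adjusted p = 5.92e-06). It was lower by 1.03 with Lyn too, and lower by 0.75 with CpG-B. The transcript BG069230 was measured on all 3 DKO arrays (-2.32, -2.26 and -2.09) and on none of the Lyn-KO arrays, at least 3.13-fold higher (limma adjusted p = 4.47e-05). It was measured in no other group, so it entered the test only through the group where it is high, and its call is a description. The same holds for a probe at chr12:25852471-25852681 of mm9, measured on all 3 DKO arrays and no Lyn-KO array. It was at least 2.30-fold higher (limma adjusted p = 0.031), and no other group had it measured on all 3 arrays. A probe placed by the files at chr11:18479852-18485704 of mm9 was measured on 2 DKO arrays and no Lyn-KO array (limma adjusted p = 0.00196). It was 2.42-fold higher against the dimmest signal above background, which is no strict lower bound, since its DKO mean includes an array not above background. In unstimulated WT and Irf5-KO cells it was measured on no array. It entered the test only through DKO cells with CpG-B, the only group that had it measured on all 3 arrays. With CpG-B it was higher in DKO than in Lyn-KO cells by 2.20 ± 0.43 (limma adjusted p = 0.000623). That call is a description, and no Lyn-KO array with CpG-B had it above background.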

How the data were processed

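Total RNA of day 9 cultures was labelled with Cy3 and hybridised to Agilent mouse arrays, per the labels. The authors deposited scanner output of Feature Extraction 10.7.3.1, whose processed signal is an intensity after background subtraction, per the file headers, and was not yet scaled. The log2 values of the series table are also deposited; set against the scanner output, its differences between arrays lay within 0.0143 for 95% of values over 19940 probes, its probes are centred on their medians, and its column medians run from -0.27 to 0.38.

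The log2 processed signal minus the 75th percentile of each array was averaged over spots of a probe, leaving out 4351 spot values marked as outliers (non-uniform or population). Of 55681 probes, 26642 passed the filter, which asked for a signal well above background in 1 or more of the 8 groups, on its 3 arrays each time. Names came from matching accessions to a RefSeq table (GRCm38.p6), since the files annotate another build (mm9); 12649 features were named and 7561 were not. The brightest probe stood for a gene. Limma 3.58.1 (R 4.3.3, with data.table version 1.17.8) fitted 8 group means over 24 arrays; the calls used a Benjamini-Hochberg adjusted p of 0.05. Arrays of a group not measured were raised to the dimmest signal well above background where they lay under it, which gives the "at least" folds. The mean of the brighter group was taken as it stood, also where it held arrays not above background. Promoter windows were those of RefSeq.

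The genes, the 26 lists and the motifs were chosen with earlier results of these data known. Named were all called genes with a symbol, the 12 largest other changes in each direction at an unadjusted p under 0.01 (measured on all 3 arrays of the brighter group, groups not overlapping), list genes, Irf5, Lyn, Dock2 and 10 neighbours of Irf5 on each side; Perp and Zfp811 were picked after their values were seen. The fit was tested on simulated data. Same-numbered DKO and Lyn-KO arrays share a slide, and their deviations from the group means correlated at 0.07, 0.01 and 0.04, so the numbers were not taken as pairs and the block was an alternative. Other alternatives were the scaling, background correction, probe filter, arrays in the fit, variance prior, the series table and leaving out each array. The number of arrays limits the precision.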

Additional observations from a re-analysis of the deposited data

Results flagged for a closer look

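The effect of losing Irf5 in unstimulated cells differed between backgrounds, by the interaction term of the fit (limma), for 7 of the genes named here. The effect without Lyn minus that with Lyn was 1.95 ± 0.24 for Wnt6 (adjusted p = 0.00304), 1.61 ± 0.22 for Prss34 (adjusted p = 0.00991), 3.55 ± 0.55 for Penk (adjusted p = 0.0112) and 2.31 ± 0.37 for Mcpt8 (adjusted p = 0.0134). It was 2.16 ± 0.40 for the interferon-stimulated gene Ifi44 (adjusted p = 0.0493), 2.26 ± 0.33 for Perp, a membrane protein of epithelia, and -0.68 ± 0.11 for the zinc-finger gene Zfp811 (adjusted p = 0.0112 for both). The other genes with a name and such a call, of 10 in all, are not printed here and had negative values. Wnt6, Penk and Perp were measured on 1 WT array and on no Irf5-KO or Lyn-KO array, so their sizes rest on signals not above background. Wnt6 entered the test only through the DKO group, so its value is a description. Perp, Mcpt8, Ifi44 and Zfp811 were not called between DKO and Lyn-KO. Each gained a call there under 1 alternative: Perp with quantile normalisation, Mcpt8 without Lyn-KO replicate 1, Ifi44 without DKO replicate 1 and Zfp811 without DKO replicate 2.

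The difference between DKO and Lyn-KO changed with CpG-B for 10 of the 24 called named genes, where it did for 18.7% of all features, again by the interaction term (limma). The difference with CpG-B minus that at rest was -4.74 for Hsd11b1, -4.13 for Fam89a, -4.06 for Ifnlr1 and -1.36 for Cd300e, genes that were lower in both. It was -0.85 for Slc6a9 and -0.44 for Wnt10b, and 1.85 for H2-Eb2, 1.67 for Arhgap8, 1.21 for Cnga2 and 0.50 for Lgi4. Adjusted p ran from 1.9e-10 for Hsd11b1 to 0.0297 for Wnt10b.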

How the results depend on the processing

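No named gene called reversed its direction under any alternative run, but normexp with quantile normalisation brought the differences of dim genes nearer to 0: Fam89a to -1.10, Penk to 0.73 and Wnt6 to 0.48, each under its printed lower bound, Hsd11b1 to -0.62, Cnga2 to -0.35, Adgrg6 to -0.35, Arhgap8 to -0.21 and Wnt10b to -0.33. The 33 calls between DKO and Lyn-KO became 52 with quantile normalisation (30 of them higher), 21 without a filter on dim probes (9 lower) and 21 over probes well above background on all arrays (8 lower). They became 17 with the 12 unstimulated arrays (9 higher, 8 lower) and 0 with the 6 arrays (0 higher, 0 lower); 19 were at least 2-fold. Leaving out 1 array gave 20 to 54 calls, 13 to 39 higher and 7 to 21 lower. With the replicate block, which takes same-numbered arrays as paired, there were 39 calls, 27 of them shared. Higher calls were 54.55% of all, and 67.74% after normexp and quantile normalisation, which made 31 calls. The 7 stress response calls became 4 without the filter, 4 with the 12 arrays, 0 with the 6, and 4 to 7 on leaving out 1 array. The 17 differences between the Lyn backgrounds became 10 without the filter, 6 over probes detected on all arrays, 3 with the 12 arrays, 20 with the block and 12 to 20 on leaving out 1 array. The 3783 differences between CpG-B and rest stayed within 1.5 times that number throughout. The interactions have no value with the 6 arrays, nor that with CpG-B with the 12. Fewer arrays leave fewer degrees of freedom for the spread; the cause of the other changes was not tested.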

Other observations

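Among the genes whose differences were large without a call, the metallothionein gene Mt2, which binds zinc and other metals, was at 3.90, 3.94 and 3.87 in DKO cells and at 2.91, 3.13 and 3.11 in Lyn-KO cells. Its difference was 0.86 ± 0.21 (limma adjusted p = 0.125, and 0.0415 with the replicate block, which calls it), the 3 DKO arrays lay closer together than the Lyn-KO arrays, and it was called higher in Irf5-KO against WT cells (1.22 ± 0.21, limma adjusted p = 0.00743). Fxyd2, a regulator of the sodium pump, was at 0.31, 0.04 and -0.21 against 0.76, 0.48 and 0.76 (-0.62 ± 0.13, limma adjusted p = 0.0618, and 0.0173 with the block, which calls it), and it was called lower with Lyn (-0.87 ± 0.13). The tissue kallikreins Klk1b5 and Klk1b3 differed by -0.77 ± 0.20 and -0.62 ± 0.18 without a call (limma adjusted p = 0.18 and 0.289). Between Irf5-KO and WT Klk1b5 was called lower and Klk1b3 was not, and with CpG-B DKO cells were lower in both, by 3.03 and 3.01. These kallikreins belong to a family of near-identical genes, and a probe of one may also bind another.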
